A study of Mus musculus with 6 samples.

Results

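The 10 genes described here centre on the antioxidant response that the transcription factor NRF2 controls. They are Nfe2l2, which encodes NRF2, its inhibitor Keap1, 7 target genes (Gclc, Gclm, Slc7a11, Txnrd1, Srxn1, Hmox1 and Nqo1) and Sod2. Sod2 encodes the mitochondrial superoxide dismutase and is not counted here among the targets. The 10 genes were taken by symbol from the 24015 gene symbols of the deposited count table. All 10 were present and all 10 were among the 13284 genes with enough reads to be tested. The levels come from poly(A) RNA sequencing of primary cancer-associated fibroblasts, the stromal fibroblasts of a tumour, cultured from mammary tumours of BalbC mice with the NeuT transgene, a mutated rat Erbb2 oncogene that drives tumours of the mammary epithelium. Cells of 3 samples received nanoparticles with anti-Stat3 siRNA and cells of the other 3 received nanoparticles with control siRNA, both at 1 ug/mL for 72 hours in serum-containing high glucose medium, and no untreated cells were analysed here. The study asked which genes depend on STAT3, the transcription factor downstream of IL-6, in these fibroblasts.

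NRF2 is held in the cytoplasm by KEAP1, which hands it to a CUL3 ubiquitin ligase for degradation. Oxidants and electrophiles modify cysteines of KEAP1, NRF2 then accumulates, pairs with a small MAF protein and binds antioxidant response elements near genes for glutathione synthesis, thioredoxin recycling, haem breakdown and quinone reduction. Much of this control acts on the NRF2 protein, which RNA counts do not measure.

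Total counts were 12998168 to 18683852 per sample. Stat3 itself had 34.7, 81.9 and 78.9 CPM (a gene's count relative to its library's total, scaled with edgeR's TMM factors) in anti-Stat3 samples 1 to 3, against 220, 359 and 405 CPM in control samples 1 to 3, and the groups did not overlap. Its log2 change passed in edgeR with the replicate number as a block (-2.38 ± 0.14, SE, adjusted p = 0.0027), not with the group alone (-2.33 ± 0.41, SE, adjusted p = 1.00), and not with the block once pair 3 was left out (adjusted p = 0.264). It passed in DESeq2 with the group alone (adjusted p = 4.7e-05), with the block (1.2e-48) and with the block without pair 3 (1.2e-23). In limma-voom it passed with the block (adjusted p = 0.0021) and not with the group alone. Anti-Stat3 and control samples that carry 1 number are called a pair below, since their profiles deviated in the same way; the labels do not say what a pair shares. All 11 fibroblast markers were detected in each sample, with a summed level of 26202, 42269 and 53443 CPM in anti-Stat3 samples 1 to 3, against 22377, 64883 and 69237 CPM in control samples 1 to 3, lowest in pair 1. The summed level of 19 macrophage markers was 44.4, 1794 and 2923 CPM in anti-Stat3 samples 1 to 3. It was 49.0, 1856 and 2560 CPM in control samples 1 to 3. Macrophage transcripts were thus far lower in pair 1, though Lyz2 made up most of the sums in pairs 2 and 3. The median of the 19 was 0.56, 30.0 and 59.6 CPM in anti-Stat3 samples, against 0.27, 35.6 and 65.3 CPM in control samples. In pair 1 the complement genes C1qa, C1qb and C1qc, which mark macrophages, were at 0 to 0.13 CPM with either siRNA. Cd14 was an exception, with 19.2 and 24.2 CPM in anti-Stat3 and control sample 1, and Aif1 was low in every sample. The summed level of 16 epithelial markers was 193, 960 and 63.5 CPM in anti-Stat3 samples and 197, 939 and 59.5 CPM in control samples, highest in pair 2.

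The 7 NRF2 targets differed between pairs. Both samples of pair 1 lay above the other 4 samples for all 7 targets, which held for 18.9% of all genes tested. For 6 of the 7, all but Hmox1, both samples of pair 1 were at least 2-fold above each of the other 4, which held for 1.8% of all genes tested. These descriptions of pair 1 were chosen after the values were seen. The level in sample 1 was 2.28 to 9.70 times the mean of samples 2 and 3 with anti-Stat3 siRNA, and 4.02 to 19.4 times with control siRNA. In bulk RNA a change in the share of a cell type and a change in RNA per cell cannot be told apart. The summed macrophage and fibroblast markers above were both lowest in pair 1, and their part in this difference was not tested. Of the 11 fibroblast markers, 8 were lowest in pair 1 with either siRNA, among them the collagen genes that make up most of the sum, while Vim and S100a4 were lowest in pair 2 with either siRNA.

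**Figure D1:**
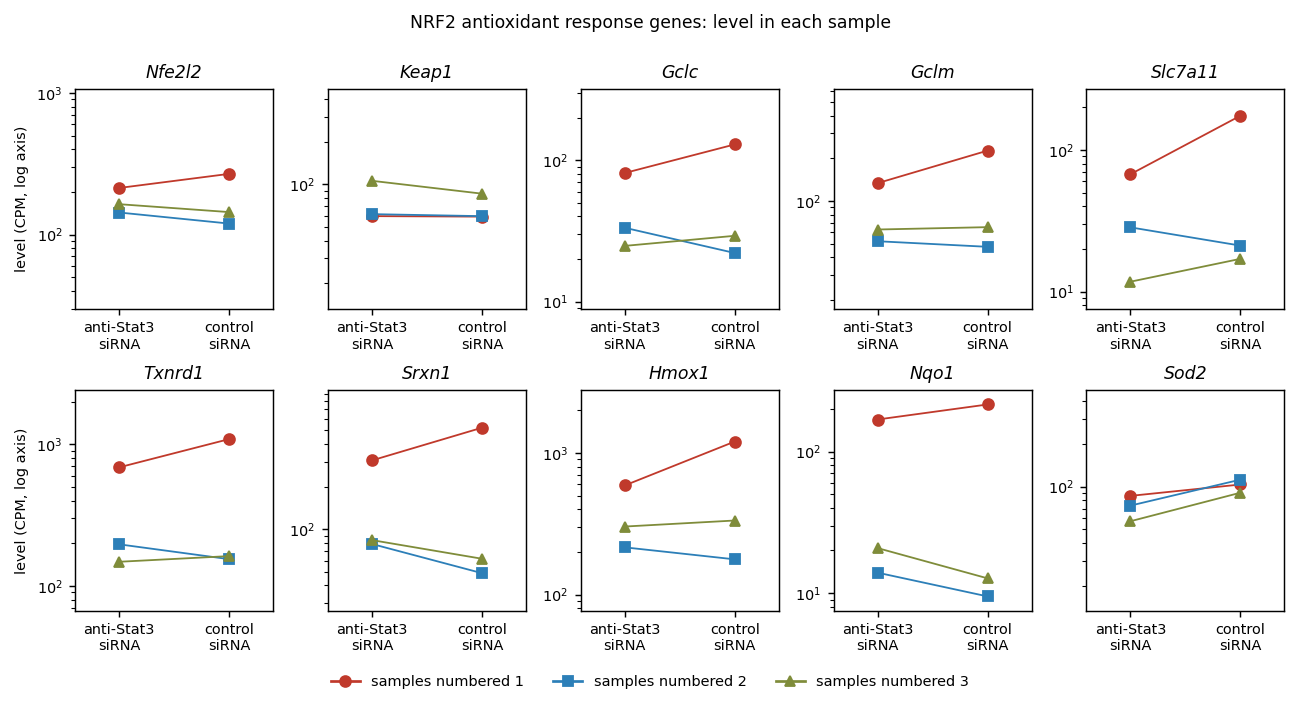
Level of each gene in CPM on log axes, with anti-Stat3 siRNA on the left and control siRNA on the right of each panel and a line joining the samples of 1 pair; every panel spans the same fold range. The pair 1 samples (circles) lie above the other 4 for the 7 targets and for Nfe2l2, and Sod2 is the gene whose 2 groups do not overlap.

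To ask whether the pairs differed beyond the scatter left within them, the replicate number was tested as a term beside the siRNA in edgeR's quasi-likelihood F test across all genes, a test added after the values were seen. It called 9 of the 10 genes, where 41.5% of all genes tested were called. The adjusted p was 7.3e-05 for Nqo1, the lowest of the targets, and 0.0031 for Hmox1, the highest. DESeq2's likelihood ratio test of the same term called the same number, 9 of 10, against 37.5% of all genes tested. Sod2 was the exception in both, with an adjusted p of 0.104 in edgeR and 0.139 in DESeq2.

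Of the regulators, Nfe2l2 had 213, 143 and 164 CPM in anti-Stat3 samples 1 to 3, against 268, 119.6 and 144 CPM in control samples 1 to 3. It was thus highest in pair 1 with either siRNA, by a smaller factor than its targets: 1.39 times the mean of samples 2 and 3 with anti-Stat3 siRNA and 2.04 times with control siRNA. The replicate number passed for it in edgeR (adjusted p = 0.014). Its log2 change between siRNAs was -0.03 ± 0.34 (SE) in edgeR with the group alone and 0.04 ± 0.14 with the pair as a block (adjusted p = 1.00 and 0.947), so the mean levels, 173 ± 36.1 CPM with anti-Stat3 siRNA and 177 ± 79.8 CPM with control siRNA (SD, n = 3 each), differed by less than the spread between samples.

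Keap1 followed another order, with 59.7, 61.7 and 106 CPM in anti-Stat3 samples 1 to 3, against 59.3, 59.7 and 86.1 CPM in control samples 1 to 3. Pair 3 was the highest, and pairs 1 and 2, between which the targets differed, were close to each other. Whether Keap1 had a part in the target difference was not tested. The replicate number term of Keap1 passed in edgeR (adjusted p = 0.0089). Keap1 was higher after anti-Stat3 siRNA in all 3 pairs, as were 17.3% of all genes tested, with changes of 0.01, 0.05 and 0.30, and it did not pass in edgeR with the block (log2 change 0.12 ± 0.11, SE, adjusted p = 0.730).

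Of the targets, 3 supply glutathione, the main small thiol of the cell. Gclc encodes the catalytic subunit and Gclm the modifier subunit of glutamate-cysteine ligase, the rate-limiting enzyme of glutathione synthesis, and Slc7a11 encodes the cystine importer that provides its cysteine. Gclc had 81.1, 33.3 and 24.8 CPM in anti-Stat3 samples 1 to 3, against 129, 22.1 and 29.2 CPM in control samples 1 to 3. Gclm had 134, 51.9 and 62.8 CPM in anti-Stat3 samples 1 to 3, against 227, 47.4 and 65.3 CPM in control samples 1 to 3. Both were highest in control sample 1 and next highest in anti-Stat3 sample 1. Per kilobase of exon, the ratio of Gclc to Gclm stayed at 0.644 to 1.05 in anti-Stat3 samples and 0.730 to 0.930 in control samples, so the transcripts of the 2 subunits were at similar levels in each sample while their sum varied.

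Slc7a11 had 67.4, 28.4 and 11.7 CPM in anti-Stat3 samples 1 to 3, against 175, 21.1 and 17.0 CPM in control samples 1 to 3. Of the targets it had the largest fall in pair 1, with a log2 change of -1.37, against 0.43 in pair 2 and -0.53 in pair 3. The mean of the 3 changes was -0.49 ± 0.90 (SD), smaller than their spread, and Slc7a11 did not pass in edgeR with the block (log2 change -0.52 ± 0.30, SE, adjusted p = 0.590), the lowest adjusted p of the 7 targets in that fit.

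Txnrd1 and Srxn1 serve thiol recycling. Txnrd1 encodes cytosolic thioredoxin reductase, a selenoprotein that passes electrons from NADPH to thioredoxin, and Srxn1 encodes sulfiredoxin, which restores over-oxidised peroxiredoxins. Txnrd1 had 687, 196 and 148 CPM in anti-Stat3 samples 1 to 3, against 1088, 154 and 162 CPM in control samples 1 to 3. Srxn1 had 306, 78.5 and 83.6 CPM in anti-Stat3 samples 1 to 3, against 520.3, 48.8 and 61.8 CPM in control samples 1 to 3. In pairs 2 and 3 Srxn1 was higher after anti-Stat3 siRNA, with log2 changes of 0.68 and 0.44, while in pair 1 its change was -0.77. Neither gene passed in edgeR with the block (adjusted p = 0.815 for Txnrd1 and 0.908 for Srxn1).

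Hmox1 encodes haem oxygenase 1, which opens haem into biliverdin, iron and carbon monoxide, and which macrophages are also known to express. Hmox1 had 590.2, 216 and 302 CPM in anti-Stat3 samples 1 to 3, against 1205, 177 and 334 CPM in control samples 1 to 3. Pair 1, where most macrophage markers were near absent, held the highest Hmox1 levels with either siRNA. The part of macrophages in the Hmox1 levels was not tested. The log2 changes of Hmox1 were -1.03, 0.28 and -0.14 in pairs 1 to 3, and it did not pass in edgeR with the block (-0.30 ± 0.23, SE, adjusted p = 0.697).

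Nqo1 encodes a reductase that converts quinones to hydroquinones and is widely used as a readout of NRF2 activity. Nqo1 had 168, 13.9 and 20.8 CPM in anti-Stat3 samples 1 to 3, against 215, 9.47 and 12.7 CPM in control samples 1 to 3. Of the 10 genes it differed most between pairs. Sample 1 held 9.70 times the mean of samples 2 and 3 with anti-Stat3 siRNA and 19.4 times with control siRNA. On the log2 scale 0.271% of all genes tested had a larger excess in anti-Stat3 sample 1 and 0.218% in control sample 1. Nqo1 changed by -0.35, 0.55 and 0.70 in pairs 1 to 3 and did not pass in edgeR with the block (0.27 ± 0.21, SE, adjusted p = 0.691).

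The stretches upstream of the targets are shown because these genes moved together between pairs. RefSeq promoter windows (GRCm38.p6, while the counts were made on mm9) were found for 8 of the 10 genes in 10 windows; Gclc and Hmox1 are the other 2. The 250 bases before each start were searched on both strands for the antioxidant response element cores TGACNNNGC and TGAGNNNGC, where N is any base, and for the AP-1 site TGAGTCA, which can lie inside the second core. Srxn1 (chr2:152105274-152105523, plus strand) is given whole, with matches in capitals, and the others as the match with up to 10 bases on each side, written in the direction of the gene.
Srxn1: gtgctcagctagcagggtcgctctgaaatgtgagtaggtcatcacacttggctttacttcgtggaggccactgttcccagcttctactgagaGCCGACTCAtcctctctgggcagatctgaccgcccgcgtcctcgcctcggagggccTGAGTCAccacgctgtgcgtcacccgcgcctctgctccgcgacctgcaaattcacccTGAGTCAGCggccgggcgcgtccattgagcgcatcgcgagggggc
Gclm: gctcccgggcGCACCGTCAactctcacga
Txnrd1: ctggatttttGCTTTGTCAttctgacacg
Slc7a11: taatgttggcGCTTTCTCAagctggagtt
Nfe2l2: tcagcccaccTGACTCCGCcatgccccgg

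The Srxn1 stretch held TGAGTCAGC with its first base 45 bases before the start, where the AP-1 site and the core overlap, a second AP-1 match 102 bases before the start, and the reverse complement of a core at 158 bases. The core TGACNNNGC was found upstream of Gclm (chr3:122245413-122245441, plus strand), 1 of 3 Txnrd1 starts (chr10:82859104-82859132, plus strand) and Nfe2l2 (chr2:75704885-75704913, minus strand), in 3 of the 10 windows, against 10.2% of all 32851 promoter windows. The core TGAGNNNGC was found upstream of Srxn1 and Slc7a11 (chr3:50443692-50443720, minus strand), in 2 of the 10 windows against 14.4% of all windows. A match is a description of letters and not a bound site. Nqo1, the target that differed most between pairs, had no match in its window, which says nothing of elements elsewhere.

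By level per kilobase of exon, averaged over the 6 samples, Hmox1 was the highest at 299.99 CPM per kb, followed by Txnrd1 at 99.6, Nfe2l2 at 70.9, Srxn1 at 65.1 and Nqo1 at 47.3 CPM per kb. Gclm (17.5), Keap1 (16.02), Gclc (15.6) and Sod2 (14.9 CPM per kb) lay close together, with ranges over samples that overlapped, and Slc7a11 was the lowest at 5.42 CPM per kb. The order depended on the pair. Nqo1 had 108 and 139 CPM per kb in anti-Stat3 and control sample 1, above Nfe2l2 at 86.2 and 108 CPM per kb, but 8.98 and 13.4 CPM per kb in anti-Stat3 samples 2 and 3 and 6.10 and 8.18 CPM per kb in control samples 2 and 3, below Keap1. Exon lengths came from an annotation of another build.

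For the siRNA comparison itself, edgeR with the group alone called 0 of the 10 genes and 0% of all genes tested. At an unadjusted p under 0.05 it had 235 of all genes and 1 of the 10, Sod2. With the pair as a block edgeR called 0 of the 10 genes and 0.0602% of all genes tested, limma-voom likewise 0 of the 10 and 0.0602%, and DESeq2 called 1 of the 10, Sod2, and 1.66% of all genes tested. The median log2 change of the 10 genes was -0.44 with the group alone and -0.14 with the block in edgeR, against -0.0028 and -0.0053 over all genes tested. The sign of these medians rested on pair 1. The median with the group alone was 0.70 without control sample 1, with 9 of the 10 genes above 0, and -1.10 without anti-Stat3 sample 1, with 1 above 0. It ranged from -0.79 to -0.15 without any one of the other 4 samples. The median with the block was 0.14 without pair 1, with 8 of the 10 above 0, -0.41 without pair 2 and -0.11 without pair 3.

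The 7 targets had a pattern of direction that followed the pair. In pair 1 all 7 were lower after anti-Stat3 siRNA, with log2 changes from -1.37 to -0.35 and a median of -0.76, where 49.6% of all genes tested were lower. In pair 2 all 7 were higher, from 0.13 to 0.68 with a median of 0.43, where 50% of all genes tested were higher. In pair 3, 5 were lower and 2, Srxn1 and Nqo1, were higher, from -0.53 to 0.70, where 48.5% of all genes tested were lower and 51.4% higher. With 1 sample of each siRNA in a pair, these changes have no replicate check, and the difference between pairs in the siRNA change was not tested. The pair 1 changes and the excess of control sample 1 share that library. Without pair 1, in edgeR with the block, the log2 changes were 0.18 for Gclc, 0.04 for Gclm, 0.11 for Txnrd1, 0.56 for Srxn1, -0.02 for Slc7a11, 0.07 for Hmox1 and 0.63 for Nqo1. None of the 7 passed, the nearest being Srxn1 (adjusted p = 0.063) and Nqo1 (adjusted p = 0.070).

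**Figure D2:**
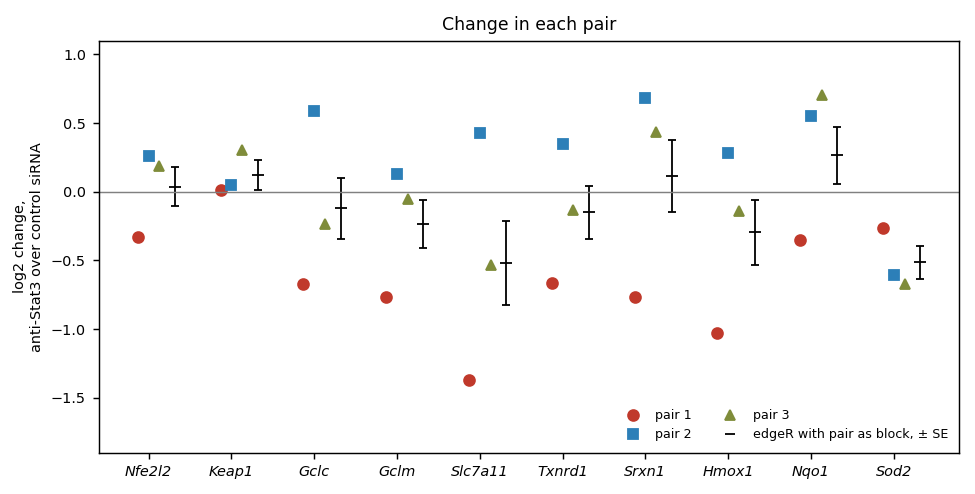
Log2 change of each gene, anti-Stat3 siRNA over control siRNA, in pairs 1 to 3 (circles, squares, triangles), with the edgeR estimate with the pair as a block and its SE in black. The 7 targets lie below 0 in pair 1 and above 0 in pair 2, and Sod2 lies below 0 in all 3 pairs.

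Sod2 was the one gene of the 10 whose groups did not overlap. Its product, manganese superoxide dismutase, turns superoxide into hydrogen peroxide in mitochondria, and the gene is known to be induced by inflammatory cytokines through NF-kB. Sod2 had 86.0, 73.4 and 56.9 CPM in anti-Stat3 samples 1 to 3, against 103, 112 and 90.5 CPM in control samples 1 to 3. Each anti-Stat3 sample lay below each control sample, as in 2.23% of all genes tested. The mean level was 72.1 ± 14.6 CPM with anti-Stat3 siRNA and 102 ± 10.8 CPM with control siRNA (SD, n = 3 each).

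The log2 changes of Sod2 were -0.27, -0.61 and -0.67 in pairs 1 to 3, lower in all 3 pairs as were 16.4% of all genes tested. In edgeR with the group alone the log2 change was -0.50 ± 0.19 (SE, unadjusted p = 0.039, adjusted p = 1.00). With the block it was -0.51 ± 0.12 in edgeR (adjusted p = 0.178) and -0.51 ± 0.12 in limma-voom (adjusted p = 0.143), so Sod2 did not pass in these fits. It fell in DESeq2 with the block, by 0.51 ± 0.15 on the log2 scale (SE, adjusted p = 0.048), where 0.783% of all genes tested were called lower. That call lay close to the threshold and was lost without pair 1 (adjusted p = 0.059), pair 2 (adjusted p = 1.00) or pair 3 (adjusted p = 1.00). Without pair 1 it passed in blocked edgeR (-0.64 ± 0.16, SE, adjusted p = 0.029). The direction was the same in all 22 alternatives tried, with log2 changes from -0.65 to -0.36. Each alternative refitted these samples or some of them, and the groups did not overlap, so the shared sign is no further evidence.

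The stretch upstream of Sod2 (chr17:13007589-13007838, plus strand, GRCm38.p6) is shown with the match to the STAT-type palindrome TTCNNNGAA in capitals, since the targeted factor binds sites of this form.
Sod2: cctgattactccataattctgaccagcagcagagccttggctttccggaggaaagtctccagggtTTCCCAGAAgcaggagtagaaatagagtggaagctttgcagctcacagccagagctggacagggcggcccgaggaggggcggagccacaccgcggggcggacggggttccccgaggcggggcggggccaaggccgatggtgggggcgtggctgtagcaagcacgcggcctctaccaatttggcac
The match began 185 bases before the start. Such matches were found in 7.02% of all promoter windows and in 4 of the 10 windows of these genes, those of Sod2, Slc7a11 and 2 Txnrd1 starts, and neither Slc7a11 nor Txnrd1 passed between siRNAs in the fits above. No binding was measured.

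**Figure D3:**
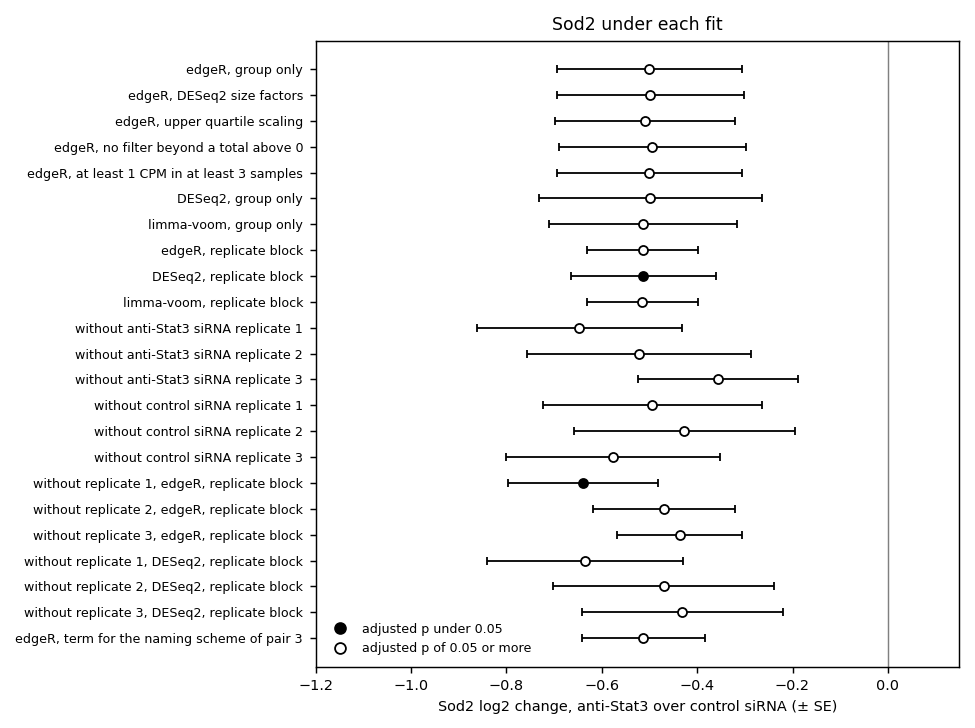
Log2 change of Sod2, anti-Stat3 siRNA over control siRNA, with its SE under the main fit (top) and 22 alternatives; filled points passed an adjusted p of 0.05. All estimates lie between -0.65 and -0.36, and 2 of the alternatives passed.

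Likeness of pattern was measured as the Euclidean distance between log2 CPM profiles over the 6 samples, each centred on its own mean, as a description with no test. Of all genes tested the one nearest to Hmox1 was Gclm (distance 0.43), and the member nearest to Srxn1 was Txnrd1, the second nearest of all genes tested (0.64). For Gclc, Slc7a11, Txnrd1 and Nqo1 the nearest member ranked between 4 and 13 among all genes tested. The genes nearest to Nfe2l2 were none of its targets but E2f6, a transcriptional repressor (distance 0.09), Ncs1, a calcium sensor (0.16), and Hsph1, a heat shock protein (0.16). The nearest member to Nfe2l2, Gclm, ranked 5362 (1.08). The distance is not scaled to the size of a gene's swings, so genes with small differences between samples lie close together. Nfe2l2, with smaller swings than its targets, therefore lies far from them even where the order of samples is alike. It was highest in control sample 1, then anti-Stat3 sample 1, and lowest in control sample 2. Gclc, Gclm, Srxn1, Hmox1 and Nqo1 shared these places, while Slc7a11 and Txnrd1 were lowest in anti-Stat3 sample 3.

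Of 62 other genes of the pathway all were present and 58 were tested: regulators, enzymes of glutathione, thioredoxin, NADPH, haem, iron and detoxification, and other genes of superoxide and peroxide removal. Between siRNAs, edgeR called 0 of the 58 with the group alone and 0 with the block, and DESeq2 with the block called 1 higher and 0 lower. In 11 of them all 3 pairs were higher and in 4 all were lower, against 17.3% and 16.4% of all genes tested. The pair medians were -0.11, 0.04 and 0.26, against 0.0011, 0 and 0.01 over all genes tested.

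The call was Ephx1, the microsomal epoxide hydrolase, with 236, 144 and 238 CPM in anti-Stat3 samples 1 to 3, against 207, 89.5 and 116 CPM in control samples 1 to 3. It rose by 0.64 ± 0.18 on the log2 scale in blocked DESeq2 (SE, adjusted p = 0.036), where 0.873% of all genes tested were called higher, and the groups overlapped because control sample 1 lay above anti-Stat3 sample 2. It did not pass in blocked edgeR (adjusted p = 0.204). The DESeq2 call was kept without pair 1 (0.86, adjusted p = 0.0010) and lost without pair 2 (0.61, adjusted p = 1.00) or pair 3 (0.44, adjusted p = 1.00), with fewer samples in each of these fits.

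Other genes of the pathway with small p in blocked edgeR did not pass there. Abcc1, an exporter of glutathione conjugates, had changes of -0.43, -0.31 and -0.62 in pairs 1 to 3 (adjusted p = 0.204 in blocked edgeR and 0.052 in blocked DESeq2). Abcc4, a related exporter, had -0.86, 0.01 and -0.47 (0.381 in blocked edgeR). Gstm1, a glutathione transferase, had 0.25, 0.45 and 0.96 in pairs 1 to 3 (adjusted p = 0.224 in blocked edgeR), and Gpx1, a glutathione peroxidase, had 0.36, 0.15 and 0.43 (adjusted p = 0.357). Without pair 1 Gstm1 passed in blocked edgeR (log2 change 0.72, adjusted p = 0.029). Txn1, thioredoxin itself, had changes of -0.07, 0.37 and 0.64, and the small MAF partners of NRF2 had -0.59, 0.03 and -0.30 for Maff and -0.17, -0.07 and -0.57 for Mafg, with adjusted p from 0.506 to 0.514 for these 3 genes in blocked edgeR. Gsta3, a glutathione transferase, had -0.76, -0.17 and 0.22 (adjusted p = 0.490), from levels in pairs 2 and 3 of 0.23 to 1.35 CPM with anti-Stat3 siRNA and 0.18 to 1.53 CPM with control siRNA, where few reads were counted.

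The difference between pairs seen in the 7 targets extended to part of the pathway. Both samples of pair 1 lay above the other 4 for 27 of the 58 genes and below them for 4, against 18.9% and 18.5% of all genes tested. For 8 genes they were at least 2-fold above each of the other 4, which held for 1.8% of all genes tested. These 8 were Maff, Mafk, Gss, Gsta3, Gsta4, Abcc4, Prdx1 and Esd, named after their values were seen. Gsta4, a transferase for lipid aldehydes, had 163, 19.3 and 20.2 CPM in anti-Stat3 samples 1 to 3, against 252, 19.8 and 5.94 CPM in control samples 1 to 3. Prdx1, a peroxiredoxin and known NRF2 target, had 680.1, 334 and 321 CPM in anti-Stat3 samples 1 to 3, against 1153, 283 and 243 CPM in control samples 1 to 3. Gss, the second enzyme of glutathione synthesis, had 68.1, 29.5 and 33.8 CPM with anti-Stat3 siRNA and 73.4, 24.5 and 29.3 CPM with control siRNA. These 3 genes were taken from the 8 above, so their being highest in pair 1 with either siRNA follows from that choice. Others of the 58 did not follow the targets. Fth1 had 1474.7, 1022.3 and 2224.5 CPM in anti-Stat3 samples 1 to 3, against 1803.2, 1001.2 and 1845.8 CPM in control samples 1 to 3. It was highest in pair 3, though control samples 1 and 3 were close to each other. The replicate number term passed in edgeR for 43 of the 58, where 41.5% of all genes tested passed. Glutathione transferases resemble each other in sequence, so the counts of any one of them are uncertain.

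By list, the median log2 excess of sample 1 over samples 2 and 3 was 0.80 with anti-Stat3 siRNA and 1.07 with control siRNA for glutathione genes (15 tested), and 0.35 and 0.97 for detoxification (9 tested). It was 0.18 and 0.35 for thioredoxin and peroxiredoxin genes (9 tested), 0.06 and 0.41 for haem and iron genes (7 tested), 0.04 and 0.50 for NADPH supply (6 tested), 0.29 and 0.29 for regulators (8 tested), and 0.49 and 0.43 for the list of Sod1, Sod3, Cat and Ccs (4 tested). The same medians were 1.88 and 2.78 for the 7 targets, and 0.0051 and -0.000125 over all genes tested. Mafk had 97.2, 42.4 and 41.5 CPM in anti-Stat3 samples 1 to 3, against 110.0, 32.4 and 34.6 CPM in control samples 1 to 3, while Cul3, the ligase scaffold that serves KEAP1, had 112 to 136 CPM with anti-Stat3 siRNA and 115 to 135 CPM with control siRNA. Among the 4 genes not tested, Aldh3a1, an aldehyde dehydrogenase, had 85, 0 and 1 counts in anti-Stat3 samples 1 to 3, against 90, 4 and 0 counts in control samples 1 to 3, nearly all of them in pair 1. Gsta1 had 7, 0 and 0 counts in anti-Stat3 samples 1 to 3, against 12, 0 and 0 counts in control samples 1 to 3. Both reached the minimum of the filter in fewer than 3 samples, and both are named after their values were seen.

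**Figure D4:**
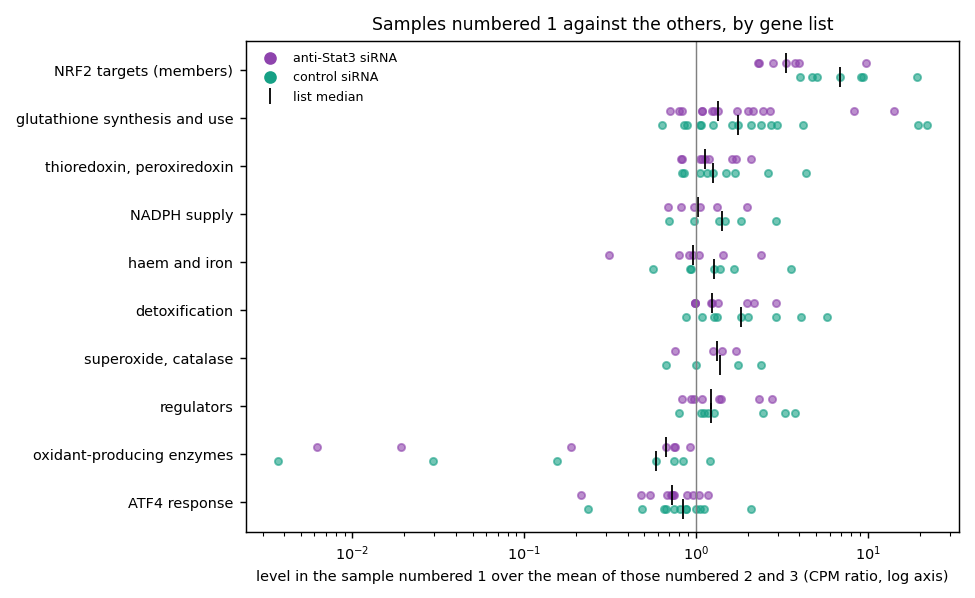
Ratio of the level in sample 1 to the mean of samples 2 and 3 for each tested gene, on a log axis, by list and siRNA (anti-Stat3 above control in each row), with the list median as a bar; Ncf4, at 0 in both samples 1, is not drawn. The 7 targets lie between 2.28 and 19.4, to the right of the medians of the other lists.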

How the data were processed

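The authors deposited raw read counts per gene symbol, not normalised, for 6 samples. TopHat2 2.0.10, HTSeq and the build mm9 are named in the submitters' processing notes. Neither strand use nor the handling of shared reads is stated, so values of overlapping or similar genes are uncertain. Columns written "sh" were matched to titles written "si" by group and number, and 0 columns were left unused. Totals of 12998168 to 18683852 allow a count of 0 to stand for up to 0.231 CPM (3 counts in the shallowest library; counting error only).

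The main test was edgeR's (4.0.16, under R 4.3.3) quasi-likelihood F test over all 13284 genes left by filterByExpr (minimum count 10, total 15), with TMM scaling, the group as the only term and Benjamini-Hochberg adjustment at 0.05. As alternatives, DESeq2 1.42.0 and limma 3.58.1 (voom) were run, with and without the replicate number as a block. A further one had a term for pair 3, whose labels follow another naming scheme. The F test of the replicate number was added after seeing the data. Log2 CPM used a prior count of 2. Scripts were tested on simulated data. The labels do not say that replicates are separate cultures; p-values cover the scatter among these 6 samples, which may be technical. Exon lengths came from GENCODE M21 (GRCm38) by symbol and promoter windows from RefSeq GRCm38.p6. Deviations from group means correlated at 0.82 to 0.83 between samples of the same number, from the titles, so the numbers were taken to pair the samples. Between samples of different numbers they correlated at most at -0.16. Deviations within a group cancel out, so these low values follow in part from the high ones and are no separate evidence.

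Members and lists were chosen with earlier results of these data known. The rule for named genes took Stat3, the 10 genes, 12 pathway or context genes called in a blocked fit or with the smallest p in blocked edgeR, and the 3 genes nearest to Nfe2l2; others named were chosen after their values were seen.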

Additional observations from a re-analysis of the deposited data

How the results depend on the processing

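In edgeR with the group alone 0 of all genes passed, as under both other scalings, both other filters, limma-voom with the group alone and the term for the naming scheme of pair 3. DESeq2 with the group alone called 17 genes, edgeR with the replicate block 8, limma-voom with the block 8 and DESeq2 with the block 220. With single samples left out, edgeR with the group alone called 0 to 40 genes, the 40 without control sample 1. Without pair 1, 2 or 3 and with the block, edgeR called 703, 3 and 0 genes and DESeq2 432, 14 and 20. Of the 10 genes, 1 (Sod2) was called by DESeq2 with the block and 1 (Sod2) by blocked edgeR without pair 1, and 0 by the other alternatives. Of the 58 pathway genes, 1 (Ephx1) was called by DESeq2 with the block, and without pair 1 the blocked fits called 2 (edgeR) and 1 (DESeq2), so that the range was 0 to 2. The block changed no other call among these genes.

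Over 22 alternatives for each of the 10 genes, 174 of 220 log2 changes kept their direction. Of these 172 also stayed on their side of the threshold, and the other 2, Srxn1 and Nqo1 in DESeq2 with the group alone, were given no p by DESeq2. A further 2 passed (Sod2) and 44 changed sign, none of them a called value. With samples or pairs left out, the log2 changes ranged from -1.05 to 0.85 for Gclc, from -0.98 to 0.55 for Gclm, from -1.82 to 0.91 for Slc7a11, from -1.45 to 1.11 for Txnrd1, from -1.38 to 1.49 for Srxn1, from -1.15 to 0.53 for Hmox1, from -2.19 to 2.60 for Nqo1, from -0.25 to 0.39 for Nfe2l2 and from -0.17 to 0.35 for Keap1. For the 7 targets the lowest value came without anti-Stat3 sample 1 and the highest without control sample 1, since each leaves pair 1 incomplete. Without pair 1, blocked edgeR and blocked DESeq2 gave positive changes for Nfe2l2 (0.22 and 0.23), Gclc (0.18 and 0.18), Gclm (0.037 and 0.041), Txnrd1 (0.11 and 0.11), Srxn1 (0.56 and 0.56), Hmox1 (0.069 and 0.073) and Nqo1 (0.63 and 0.64). Nqo1 was also positive in these fits without pair 2 (0.14 and 0.15) or pair 3 (0.064 and 0.077). With the block in edgeR, DESeq2 and limma-voom the sign changed for Nfe2l2 (0.038, 0.039 and 0.042), Srxn1 (0.12, 0.12 and 0.14) and Nqo1 (0.27, 0.28 and 0.21). In limma-voom with the group alone it changed for the same 3 genes (0.029, 0.095 and 0.37), and with the naming scheme term for Nqo1 (0.024). Apart from the samples left out, the cause was not tested. Of the 10 genes, Sod2 alone had 1 sign under every alternative run, which follows largely from its groups not overlapping in these samples.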

Other observations

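Several enzymes that make superoxide or hydrogen peroxide were lowest in pair 1, where the NRF2 targets were highest. Of 10 such genes 8 were tested; both samples of pair 1 lay below the other 4 for 5 of them, against 18.5% of all genes tested, and above them for 0. Cybb, the catalytic subunit of the phagocyte NADPH oxidase, had 0.50, 25.9 and 26.4 CPM in anti-Stat3 samples 1 to 3, against 0.54, 12.5 and 24.4 CPM in control samples 1 to 3. Ncf1, a cytosolic subunit of that oxidase, named after its values were seen, had 0.13, 14.0 and 26.2 CPM in anti-Stat3 samples, against 0.068, 13.3 and 23.3 CPM in control samples. Both were near absent in pair 1, as were most macrophage markers, and the part of macrophages in this was not tested. Nox4, an oxidase that makes hydrogen peroxide, also named after its values were seen, had 18.6, 33.8 and 21.6 CPM in anti-Stat3 samples, against 18.3, 25.7 and 23.3 CPM in control samples. Between siRNAs 0 of the 8 passed in edgeR or DESeq2 with the block, where 0.0602% and 1.66% of all genes tested passed, so the 0 says nothing particular of these genes. Xdh, xanthine dehydrogenase, had changes of 0.08, 0.67 and 0.86 in pairs 1 to 3 (adjusted p = 0.261 in blocked edgeR and 0.110 in blocked DESeq2) and passed without pair 1 in both (0.77, adjusted p = 0.0099 in edgeR and 0.0029 in DESeq2).

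Slc7a11 is also a target of ATF4, the factor of the amino acid response, and several other ATF4 targets were lowest in the pair where it was highest. Of 12 tested genes of that response, both samples of pair 1 lay above the other 4 for 1 and below them for 6, against 18.9% and 18.5% of all genes tested. Trib3, a pseudokinase induced by ATF4 and named after its values were seen, had 23.4, 69.3 and 148 CPM in anti-Stat3 samples 1 to 3, against 26.5, 75.0 and 152 CPM in control samples 1 to 3, lowest in pair 1. Ddit3, a stress-induced transcription factor, had 64.0, 103 and 133 CPM in anti-Stat3 samples, against 59.9, 73.6 and 111 CPM in control samples, with an adjusted p of 0.424 in blocked edgeR. Between siRNAs 0 of the 12 passed in edgeR or DESeq2 with the block, against the same 0.0602% and 1.66% of all genes tested. The part of ATF4 in the Slc7a11 levels was not tested.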
